A study of Mus musculus with 8 samples.

Results

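Metallothioneins and zinc transporters are described here in the ventricles of tumor-bearing and control mice. The genes were chosen by symbol, by a rule that uses no measured value, although earlier results of these data were known. They are the metallothioneins Mt1, Mt2 and Mt3, the zinc-sensing transcription factor Mtf1, the SLC30 family transporters Slc30a1 and Slc30a2, and the SLC39 family transporters Slc39a1, Slc39a8, Slc39a10 and Slc39a14. These are 10 of 43346 genes listed. All 10 passed the filter on low counts that 16111 genes passed.

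Hearts came from male C57BL/6 mice that had been injected at 7 weeks of age and were sampled at day 14. The 4 LLC1 mice received 1000000 LLC1 cells (Lewis lung carcinoma, a mouse lung tumor line) under the skin of the left flank, and the 4 PBS mice received phosphate-buffered saline. The labels name no engineered allele or other treatment. Mice are named by group and by the code in their label (LLC1 1-2, 1-3, 1-5 and 2-2, and PBS 1-1, 1-3, 2-1 and 2-5). The labels call the tissue heart, and the study's methods call it ventricular tissue.

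Metallothioneins are small, cysteine-rich proteins that bind zinc and copper in the cytosol. The transcription factor MTF1 senses a rise in free zinc, enters the nucleus and binds metal response elements, through which it induces Mt1, Mt2 and the zinc exporter gene Slc30a1, and it is known to repress Slc39a10. Mt1 and Mt2 are also known to be induced by glucocorticoids, by acute phase cytokines and by oxidative stress. SLC30 proteins (also called ZnT) move zinc out of the cytosol, either across the plasma membrane or into organelles and vesicles, and SLC39 proteins (also called ZIP) move zinc into the cytosol.

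Library totals were 15342214 to 19747596 counts for LLC1 mice and 12480706 to 16192158 counts for PBS mice, so that 1 CPM (a count for each 1000000 counts of the library) stands for 12 to 20 counts. Of the 16111 genes tested, 1406 (8.73%) were under 0.05 for the false discovery rate (FDR) in edgeR's quasi-likelihood test, 663 (4.12%) higher and 743 (4.61%) lower in LLC1 mice. The groups did not overlap for 2766 genes (17.2%). PBS 1-1 stood apart from the other PBS mice: on the second principal component (25.18% of the variance) it scored 35.34, against -23.28 to -10.81 for the other PBS mice, and its median deviation from its group's mean, 0.206 on the log2 scale, was the highest of the 8. Cardiomyocyte markers summed to 78430 to 93850 CPM in every mouse, while atrial markers (Myl7, Myl4, Sln and Nppa) summed to 113 to 339 CPM, nearly all of it Nppa, with Sln at 0 to 0.353 CPM.

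Before the values, the upstream sequences of Mt1 and Mt2 are shown, because metal response elements in this kind of region are the known route of zinc induction. Each run holds the 250 bases before the RefSeq start of the gene (GRCm38.p6, plus strand, 5′ to 3′), at chr8:94178839-94179088 for Mt1 and chr8:94172368-94172617 for Mt2. Capitals mark matches on either strand to the letters TGCACNC or TGCGCNC, the core of the metal response element.
Mt1: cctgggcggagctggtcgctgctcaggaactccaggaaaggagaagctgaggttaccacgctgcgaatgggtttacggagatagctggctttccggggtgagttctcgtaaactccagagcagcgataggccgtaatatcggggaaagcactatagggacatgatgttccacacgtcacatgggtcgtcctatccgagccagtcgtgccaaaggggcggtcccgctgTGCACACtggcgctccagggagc
Mt2: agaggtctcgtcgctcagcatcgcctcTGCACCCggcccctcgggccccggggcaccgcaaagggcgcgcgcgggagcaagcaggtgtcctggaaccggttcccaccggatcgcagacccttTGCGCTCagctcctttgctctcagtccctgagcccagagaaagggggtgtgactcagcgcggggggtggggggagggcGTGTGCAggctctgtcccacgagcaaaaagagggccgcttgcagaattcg
Mt1 had 1 core match upstream of this start, at bases -23 to -17, and 2 more among the first 50 bases after it (3 to 9 and 21 to 27). Mt2 had 3 upstream, at -223 to -217, at -128 to -122 and, on the reverse strand, at -50 to -44, and 1 after the start. None of the matches overlapped another. Over all 32851 RefSeq windows, 21.406% held at least 1 match in the upstream 250 bases and 1.263% held at least 3. With the 50 bases after the start included, 1.969% held at least 3 and 0.517% at least 4. Bases further after the start were not scanned. Start sites of both genes vary between annotations: GENCODE release M21 lists transcripts of Mt1 that begin 122 and 152 bases, and one of Mt2 that begins 242 bases, after the RefSeq start, and which start the ventricles use was not measured. Upstream windows were found for 9 of the 10 genes. In the upstream 250 bases Slc30a1 had 1 match and Slc30a2 had 2, 1 of the 2 windows of Slc39a8 had 1, and Mt3, Mtf1, Slc39a1 and Slc39a10 had none. Among the first 50 bases after the start, Slc30a1 and Mt3 each had 1 (31 to 37 and 28 to 34). A match of these letters is not a bound site.

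Measured per length, Mt1 was the most abundant of the 10 transcripts. CPM per kilobase of gene length (RPKM) averaged 394 for Mt1 over the 8 mice, above 99.1% of all genes tested, 79 for Mt2 (above 96%), 32.1 for Slc39a1 and 8.74 for Slc39a14. Below these stood Slc30a1 at 5.17, Mtf1 at 3 (range 2.75 to 3.24), Slc39a10 at 2.57 and Mt3 at 1.05 RPKM, and Slc39a8 at 0.333 and Slc30a2 at 0.278 RPKM were above no more than 4.88% of the genes tested. Mt1 lay above Mt2 in 8 of 8 mice, and with the deposited lengths the per-mouse ranges of these 2 genes did not overlap. Neighbors in this order that overlapped in range were Mt2 and Slc39a1 (Mt2 higher in 7 of 8 mice, PBS 1-1 being the exception), Mtf1 and Slc39a10 (7 of 8), Slc39a10 and Mt3 (8 of 8), Mt3 and Slc39a8 (7 of 8), and Slc39a8 and Slc30a2 (6 of 8). The metallothionein transcripts are short (540, 556 and 538 bases in the deposited table for Mt1, Mt2 and Mt3), so their level per length depends more on how fragments at transcript ends were counted than that of the transporters. It also depends on the annotation: M21 gives 1246, 588 and 1066 exon bases for the 3 genes. With these lengths, an alternative chosen after the data were seen, Mt1 averaged 171 RPKM (85.6 to 223) and Mt2 74.7 RPKM (18.5 to 126), so that Mt1 was still higher in 8 of 8 mice but the ranges overlapped, and Mt3 averaged 0.53 RPKM.

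**Figure D1:**
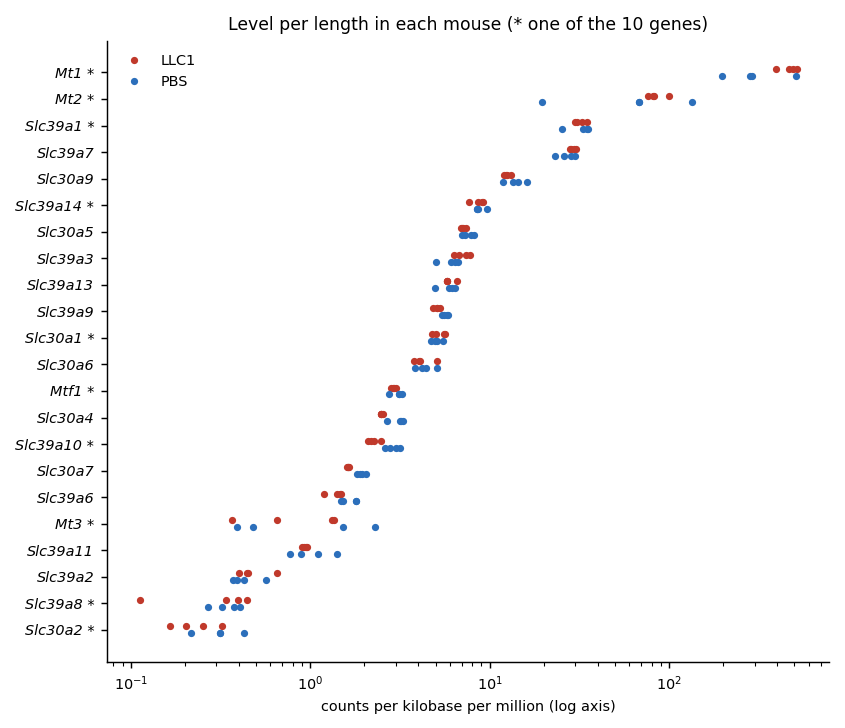
Level per length (RPKM, log axis) of the 10 genes (asterisks) and of 12 other zinc genes tested, 1 point per mouse, LLC1 in red and PBS in blue, with the deposited gene lengths. Mt1 lies between 197 and 515 in every mouse, above all other genes shown, and Mt2 is spread from 19.6 to 134 with the 4 LLC1 mice close together.

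With all mice, 1 of the 10 genes passed an FDR of 0.05 (10%, against 8.73% of all genes tested), and that gene, Slc39a10, was lower in LLC1 mice, as were 4.61% of all genes. None was called higher. Log2 fold changes of LLC1 over PBS were positive for 3 genes and negative for 7, with a median of -0.05, against -0.01 over all genes tested. In 1 of the 10 every value of one group lay below every value of the other (17.2% of all genes).

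**Figure D2:**
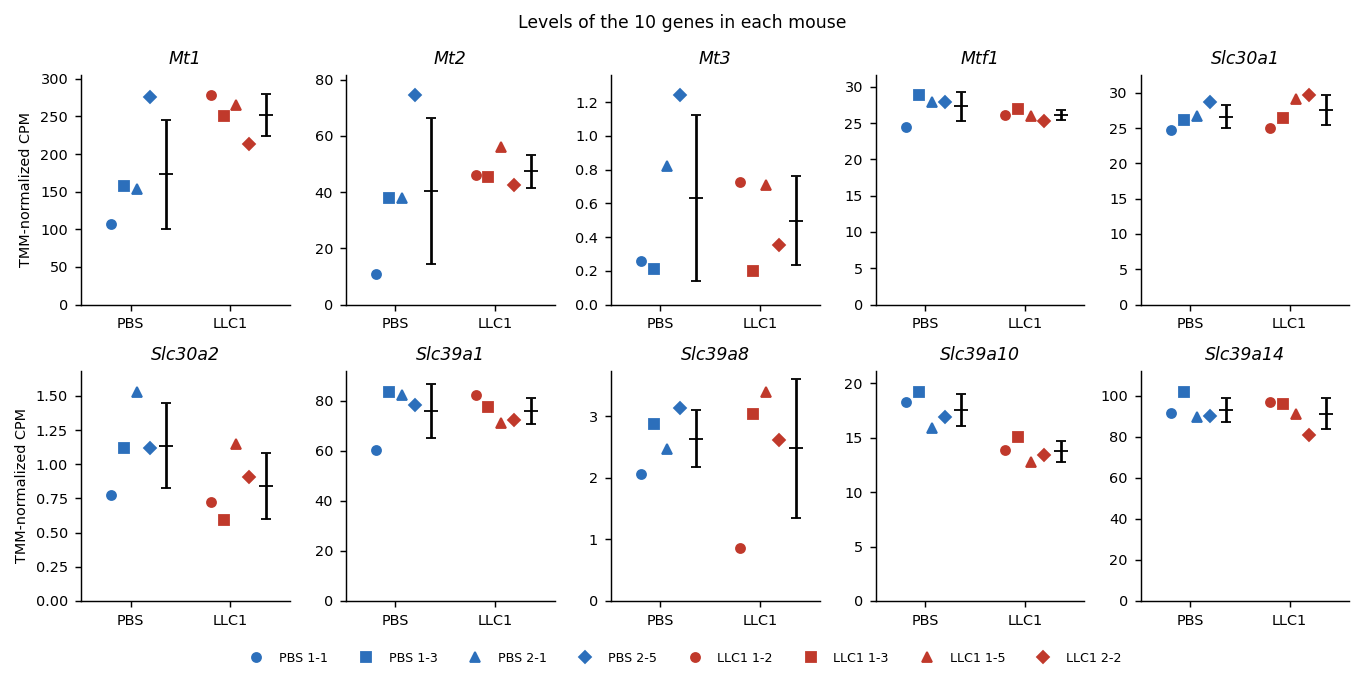
CPM (TMM-normalized, linear axes from 0) of each of the 10 genes in each mouse, PBS in blue and LLC1 in red, with a marker shape for each mouse and the group mean ± SD in black (n = 4). Slc39a10 is the single panel in which the groups do not overlap, and for Mt1 and Mt2 the PBS mice span a wider range than the LLC1 mice, with PBS 1-1 lowest.

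Mt1 (ENSMUSG00000031765, chr8:94179089-94180325, mm10), which encodes metallothionein 1, stood at 278, 251, 265 and 213 CPM in LLC1 1-2, 1-3, 1-5 and 2-2. In the PBS mice 1-1, 1-3, 2-1 and 2-5 it stood at 107, 157, 154 and 276 CPM. PBS 1-1, 1-3 and 2-1 were below every LLC1 mouse, while PBS 2-5 was above 3 of the 4. Group means were 252 ± 28.2 CPM for LLC1 and 173 ± 72.4 CPM for PBS (SD, n = 4). The log2 fold change was 0.54 (SE 0.22, fold 1.45, 95% interval 1.08 to 1.95), which did not pass the test (edgeR p = 0.03, FDR 0.147, exact two-sided permutation p = 0.114). Among PBS mice the SD of log2 CPM was 0.57, larger than that of 94.8% of genes tested, against 0.17 among LLC1 mice. A single PBS mouse decided the call: without PBS 2-5 the log2 fold change of Mt1 was 0.85 with an FDR of 0.00455, without PBS 1-1 it was 0.36 with an FDR of 0.194, and each of the other 6 mice left out gave no call.

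Mt2 (ENSMUSG00000031762, chr8:94172618-94173567), the gene of metallothionein 2 and a near neighbor of Mt1 on the chromosome, stood at 46.1, 45.2, 56 and 42.6 CPM in the LLC1 mice in the same order. In the PBS mice it stood at 10.9, 38.1, 38.0 and 74.4 CPM. PBS 1-1 held the lowest and PBS 2-5 the highest level of the 8 mice, with all LLC1 mice between them. The PBS mice differed by 6.83-fold from lowest to highest and the LLC1 mice by 1.31-fold. The SD of log2 CPM was 1.15 among PBS mice, larger than that of 99.6% of genes tested, and 0.17 among LLC1 mice. Whether the spread itself differed between the groups was not tested. With these values the log2 fold change was 0.22 (SE 0.36, 95% interval of the fold 0.712 to 1.9, edgeR FDR 0.749, exact permutation p = 0.514). Its sign turned without PBS 1-1, to -0.08 (FDR 0.832), and without PBS 2-5 it was 0.68 (FDR 0.162).

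The ratio of Mt1 to Mt2 counts was 6.03, 5.55, 4.74 and 4.99 in the LLC1 mice and 9.79, 4.12, 4.04 and 3.72 in the PBS mice. The 4 LLC1 mice lay above PBS 1-3, 2-1 and 2-5 and below PBS 1-1. In PBS 1-1 the ratio rested on 127 Mt2 counts and had a 95% counting interval of 8.15 to 11.8 (exact binomial, counting error only), which did not reach the interval of any other mouse. In M21, 73.5% of the exon bases of Mt2 overlap the antisense gene Gm45774. The library kit does not mark strand, so reads of this overlap cannot be assigned to either gene.

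Mt3 (ENSMUSG00000031760, chr8:94152607-94154148), a metallothionein known mainly from brain, was near the limit of detection. It had 11, 3, 13 and 7 counts in the LLC1 mice (0.728, 0.198, 0.711 and 0.352 CPM) and 3, 3, 14 and 21 counts in the PBS mice (0.257, 0.21, 0.824 and 1.24 CPM). The groups overlapped, and 3 mice held 3 counts only. No difference was detectable at this depth (log2 fold change -0.43, SE 0.54, FDR 0.661, exact permutation p = 0.771), with a 95% interval of the fold from 0.356 to 1.55.

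Mtf1 (ENSMUSG00000028890, chr4:124802104-124849800), the metal-responsive transcription factor itself, stood at 26.1, 26.9, 25.9 and 25.3 CPM in LLC1 mice and at 24.5, 28.8, 28.0 and 28.0 CPM in PBS mice. PBS 1-1 was the lowest and the other PBS mice were above every LLC1 mouse. The log2 fold change was -0.07 (SE 0.07, FDR 0.588, exact permutation p = 0.257), and the 95% interval of the fold was 0.863 to 1.05. An opposite-strand gene, 1110065P20Rik, overlaps 8.1% of its exon bases.

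Slc30a1 (ENSMUSG00000037434, chr1:191906767-191913247) encodes ZnT1, the plasma membrane exporter that lowers cytosolic zinc and the transporter best known as an MTF1 target. Levels were 25.1, 26.4, 29.1 and 29.6 CPM in LLC1 mice and 24.8, 26.2, 26.8 and 28.7 CPM in PBS mice. LLC1 1-5 and 2-2 lay above all PBS mice and the other LLC1 mice lay among them. The log2 fold change was 0.05 (SE 0.08, FDR 0.741, exact permutation p = 0.514), with a 95% interval of the fold of 0.928 to 1.15. Of its exon bases, 8.9% overlap 1700034H15Rik on the other strand.

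Slc30a2 (ENSMUSG00000028836, chr4:134343181-134354484) encodes ZnT2, a vesicular transporter known from secretory epithelia. It had 9 to 26 counts a mouse, at 0.728, 0.593, 1.15 and 0.906 CPM in LLC1 mice and 0.772, 1.12, 1.53 and 1.12 CPM in PBS mice. LLC1 1-2 and 1-3 were below every PBS mouse and the rest overlapped. Its log2 fold change was -0.43 (SE 0.28, FDR 0.369, exact permutation p = 0.2), and folds from 0.504 to 1.09 lay within the 95% interval.

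Slc39a10 (ENSMUSG00000025986, chr1:46807544-46892852), which encodes the plasma membrane zinc importer ZIP10, fell in LLC1 mice. It stood at 13.8, 15.1, 12.8 and 13.4 CPM (209, 229, 234 and 266 counts) in LLC1 mice. In PBS mice it stood at 18.3, 19.2, 15.9 and 16.9 CPM (213, 274, 270 and 287 counts). Every LLC1 mouse was below every PBS mouse, with the narrowest gap between LLC1 1-3 and PBS 2-1. Means were 13.8 ± 0.967 CPM for LLC1 and 17.6 ± 1.46 CPM for PBS (SD, n = 4), a log2 fold change of -0.35 (SE 0.09, fold 0.784, 95% interval 0.693 to 0.887, edgeR p = 0.00216, FDR 0.0337, exact two-sided permutation p = 0.0286). This permutation p is the smallest that 70 arrangements can give. The direction held in all 11 alternative settings and with each mouse left out (log2 fold change -0.40 to -0.29), but the call held in 8 of the 11 settings and in 3 of the 8 fits without 1 mouse (FDR 0.0331 to 0.104). It held without PBS 1-1 (log2 fold change -0.33, FDR 0.0408), without PBS 2-1 and without PBS 2-5, and was lost without PBS 1-3 or any single LLC1 mouse.

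**Figure D3:**
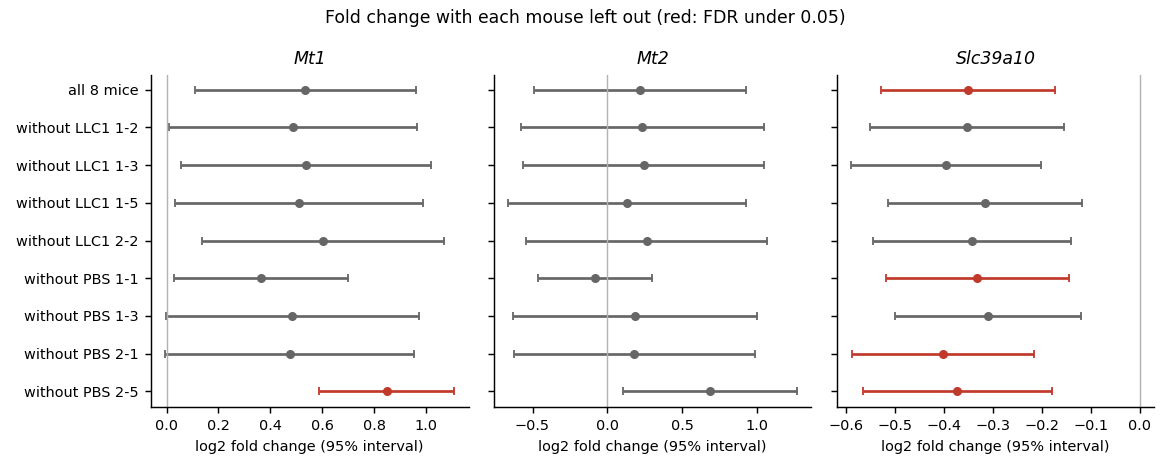
Log2 fold change of LLC1 over PBS for Mt1, Mt2 and Slc39a10 with all 8 mice and with each mouse left out in turn (points, with bars of 1.96 SE), red where the FDR is under 0.05. Mt1 turns red in 1 fit, without PBS 2-5, Mt2 crosses 0 without PBS 1-1, and Slc39a10 stays below 0 throughout.

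Slc39a1 (ENSMUSG00000052310, chr3:90248172-90253612) encodes ZIP1, a widely expressed importer, and had the highest mean level per length of the transporters. Levels were 82.4, 77.6, 71.2 and 72.4 CPM in LLC1 mice and 60.1, 83.5, 82.2 and 78.1 CPM in PBS mice. PBS 1-1 was the lowest and the remaining 7 mice overlapped. The log2 fold change was -0.005 (SE 0.10, FDR 0.982, exact permutation p = 0.971), with folds of 0.873 to 1.14 in its 95% interval. The pseudogene Slc39a1-ps shares 973 bases at 97.7% identity but had at most 33 counts in a mouse.

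Slc39a14 (ENSMUSG00000022094, chr14:70303469-70351425) encodes ZIP14, an importer of zinc, iron and manganese known as an acute phase gene in liver. It stood at 97, 95.9, 91.3 and 80.7 CPM in LLC1 mice and at 91.3, 101.8, 89.3 and 90.1 CPM in PBS mice. PBS 1-3 was the highest and LLC1 2-2 the lowest of the 8. Its log2 fold change was -0.03 (SE 0.07, FDR 0.836, exact permutation p = 0.743), and the 95% interval of the fold was 0.885 to 1.08.

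Slc39a8 (ENSMUSG00000053897, chr3:135825279-135888572) encodes ZIP8, the closest relative of ZIP14. It had 0.86, 3.03, 3.39 and 2.62 CPM in LLC1 mice and 2.06, 2.87, 2.47 and 3.13 CPM in PBS mice. LLC1 1-2, with 13 counts, was far below the other 7 mice, which had 24 to 62. The SD of log2 CPM among LLC1 mice was 0.84, larger than that of 99.6% of genes tested. The log2 fold change was -0.09 with all mice (SE 0.31, FDR 0.894, exact permutation p = 0.857) and 0.18 without LLC1 1-2 (FDR 0.633).

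Of the 3 families, 18 further genes were examined. Mt4 had no count in any mouse, Slc30a3, Slc30a10, Slc39a4, Slc39a5 and Slc39a12 did not pass the filter on low counts, and 12 were tested. None of the 12 passed an FDR of 0.05 (0%, against 8.73% of all genes), 4 had an unadjusted edgeR p under 0.05 (as did 25.5% of all genes tested), and DESeq2 also called 0 (against 6.32% of the genes it fitted). Log2 fold changes were positive for 4 and negative for 8, with a median of -0.12. By level per length the leading genes were Slc39a7, which encodes the endoplasmic reticulum zinc releaser ZIP7 (28.1 RPKM, log2 fold change 0.12, FDR 0.384), Slc30a9 (13.2 RPKM, -0.16, FDR 0.264) and Slc30a5, a secretory pathway transporter (7.35 RPKM, -0.09, FDR 0.489).

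For 3 of these 12 genes the 2 groups had no overlap (17.2% of all genes tested), and all 3 were lower in LLC1 mice. These genes, Slc30a4, Slc30a7 and Slc39a9, are named after their values were seen. Slc30a4, which encodes the vesicular transporter ZnT4, stood at 13.5 to 14 CPM in LLC1 mice and at 14.6 to 18 CPM in PBS mice (log2 fold change -0.30, FDR 0.0515), and passed 0.05 in 5 of 11 alternative settings. Slc30a7, a Golgi transporter gene, stood at 14.4 to 14.9 CPM in LLC1 and 16.6 to 18.5 CPM in PBS mice (-0.25, FDR 0.0589). For Slc39a9 the log2 fold change was -0.15 (FDR 0.172).

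**Figure D4:**
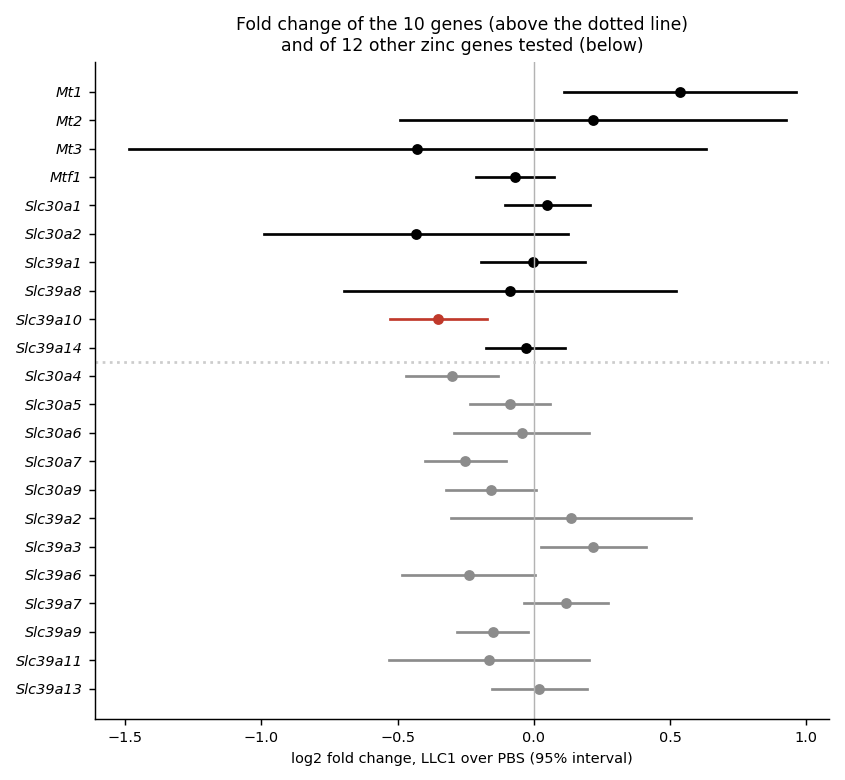
Log2 fold change of LLC1 over PBS (points) with 95% intervals (lines, 1.96 SE) for the 10 genes, above the dotted line, and the 12 other zinc genes tested, below it. Slc39a10, in red, is the gene with an FDR under 0.05, and the intervals of Mt2, Mt3, Slc30a2 and Slc39a8 are the widest among the 10.

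Inducers of metallothioneins were then followed through 3 lists of response genes. Of 5 other genes known to respond to metal through MTF1 (Gclc, Ndrg1, Csrp1, Selenoh and Selenow), none passed an FDR of 0.05 in edgeR (8.73% of all genes). Their median log2 fold change was 0.13, 2 had an unadjusted p under 0.05 (25.5% of all genes) and DESeq2 called 1, in the lower direction (6.32% in either direction). With 5 genes, these counts are not set apart from those shares. Of 10 glucocorticoid-induced genes, 2 rose (20%, against 4.12% of all genes called higher), none was called lower, 6 had an unadjusted p under 0.05 (25.5% of all genes), and the median log2 fold change was 0.48. The log2 fold change was negative for 1 of the 10, Sgk1 (-0.40, SE 0.20, FDR 0.225). Klf15, a Krüppel-like factor of muscle amino acid and lipid metabolism, rose by 0.75 (log2, SE 0.10, FDR 0.00167), from 53.7 to 73.6 CPM in PBS mice to 100.2 to 114 CPM in LLC1 mice. Klf9 rose by 0.34 (log2, SE 0.09, FDR 0.0372), a call that was lost with total-count scaling (FDR 0.11) and held in 2 of 8 fits without 1 mouse (without PBS 1-1 and without PBS 2-5).

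The same PBS mouse that was high for Mt1 and Mt2 was also high for the glucocorticoid list. As the mean of the 10 genes' log2 CPM, each centred on its mean over the mice, PBS 2-5 stood at 0.28, while PBS 1-1, 1-3 and 2-1 stood at -0.41, -0.16 and -0.67 and the LLC1 mice at 0.11 to 0.31. Mt1 and Mt2 together held 350.7 CPM in PBS 2-5 and 118, 195 and 192 CPM in the other PBS mice, and 255 to 324 CPM in LLC1 mice. Among genes named after their values were seen, Per1 stood at 167 CPM in PBS 2-5 against 56.8 to 86.9 CPM in the other PBS mice and 103 to 137 CPM in LLC1 mice. Fkbp5 stood at 35.1 CPM in PBS 2-5, 15 to 21.6 CPM in the other PBS mice and 31 to 37.7 CPM in LLC1 mice. Without PBS 2-5, left out after it was seen to be high for this list, 7 of its 10 genes were called higher, against 4.99% of all genes in that fit. Leaving out a PBS mouse that is high for the list favors such calls, so this count is not separate evidence. The other fits without 1 mouse called 1 to 3 genes of the list. Other members of the list were not as high in PBS 2-5: Klf15 (73.6 CPM), Klf9 (86.4 CPM) and Ddit4 (103 CPM, likewise named after its values were seen) were each below every LLC1 mouse there. Which PBS mouse was lowest for the list depended on the measure. By the centred mean it was PBS 2-1. By summed CPM it was PBS 1-1, as for both metallothioneins (1118 CPM, against 2260 CPM in PBS 2-5, the highest PBS mouse). The largest term of that sum was Pdk4, at 449 CPM in PBS 1-1 and 1016 CPM in PBS 2-1. PBS 1-1 was below PBS 2-1 for Pdk4, Per1 and, by little, Klf9, and above it for the rest of the list. The MTF1 target list summed to 189 CPM in PBS 1-1 and 229.9 CPM in PBS 2-5, the lowest and highest PBS sums, with LLC1 mice at 214 to 232 CPM. No hormone was measured, and the part of glucocorticoids in the metallothionein levels was not tested.

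**Figure D5:**
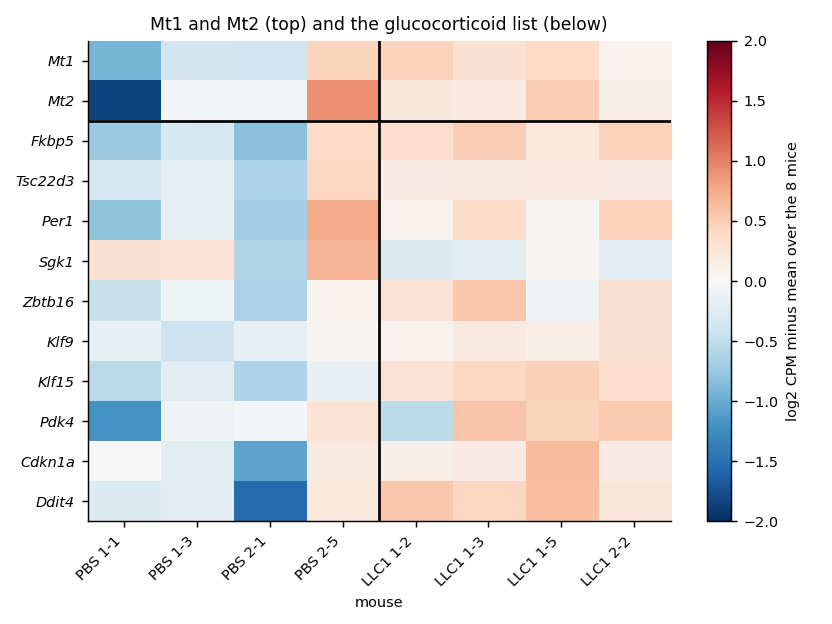
Log2 CPM of Mt1, Mt2 and the 10 genes of the glucocorticoid list in each mouse, as the difference from the gene's mean over the 8 mice (blue below and red above it). In PBS 2-5 every gene shown except Klf15 is above its mean, Klf9 by little, and in PBS 1-1 Mt2 is the lowest cell of its row.

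Of 10 genes induced through interleukin-6 and STAT3, 3 rose (30%, against 4.12% of all genes), none was called lower, and the median log2 fold change was 0.35. Log2 fold changes were negative for 2 of the 10, Timp1 (-0.63, SE 0.27, FDR 0.171) and Junb (-0.12, SE 0.21, FDR 0.76). Osmr, a receptor subunit for oncostatin M, rose by 0.67 (log2, SE 0.13, FDR 0.0104). Lcn2, the acute phase protein lipocalin-2, rose by 0.99 (log2, SE 0.20, FDR 0.0118), from 3 to 3.48 CPM in PBS mice to 4.73 to 9 CPM in LLC1 mice. Cebpd, an acute phase transcription factor gene, rose by 0.87 (log2, SE 0.23, FDR 0.035), with groups that overlapped, and its call held in 1 of 8 fits without 1 mouse (without PBS 1-1, FDR 0.0018, with FDR up to 0.0975 in the others). PBS 2-5 was not high for this list (-0.25 as a centred mean, against -0.29 to -0.04 in the other PBS mice and 0.04 to 0.39 in LLC1 mice).

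Several cell type markers moved with the groups, set against 4.61% of all genes called lower and 4.12% called higher. Endothelial markers (5 genes) summed to 733 to 866 CPM in LLC1 and 848 (PBS 1-1) to 1136 CPM (PBS 2-5) in PBS mice, and 1 of 5, the VEGF receptor gene Kdr, fell. Fibroblast markers summed to 607 to 681 CPM in LLC1 and 639 (PBS 1-1) to 738 CPM (PBS 2-5) in PBS mice, and 2 of 5, Lum and Col1a1, fell. Dcn, which held most of that sum, was not called (log2 fold change 0.07), nor were Pdgfra (-0.07) and Tcf21 (-0.21). Macrophage markers summed to 127 to 155 CPM in LLC1 mice and 119 (PBS 1-1) to 202 CPM (PBS 2-5) in PBS mice, with 0 of 5 called (2 at an unadjusted edgeR p under 0.05, against 25.5% of all genes). Smooth muscle and pericyte markers summed to 679 to 752 CPM in LLC1 and 776 to 920 CPM in PBS mice, sums that did not overlap. Of these 4 genes 0 were called, and 2, Acta2 and Rgs5, had an unadjusted edgeR p under 0.05 (25.5% of all genes). Rgs5 held most of each sum (544 to 646 CPM in LLC1 and 625 to 718 CPM in PBS mice), and its own values overlapped between the groups. Log2 fold changes of Myh11 (-0.03) and Tagln (-0.003) were near 0. The PBS mice lowest and highest for Mt2, 1-1 and 2-5, were also lowest and highest among PBS mice for the endothelial, fibroblast and macrophage sums, but not for the smooth muscle and pericyte sum, for which PBS 2-5 was the lowest PBS mouse (776 CPM, against 856 CPM in PBS 1-1). Of 3 neutrophil markers tested, 2 rose, S100a8 and S100a9, but the 5 markers together summed to at most 6.06 CPM, and Ly6g was at 0 in all mice but LLC1 1-2. Cardiomyocyte markers summed to 87360 to 93850 CPM in LLC1 and 78430 to 80630 CPM in PBS mice, and 1 of 6, Myh6, rose. Myh6 held most of each sum (53471 to 56460 CPM in LLC1 and 44721 to 47606 CPM in PBS mice). The other cardiomyocyte markers were not called, with positive log2 fold changes for Tnnt2, Tnni3 and Myl2 and negative ones for Actc1 (-0.05) and Ryr2 (-0.17). Erythroid, glial and epithelial sums overlapped between the groups with 0 genes called (0, 1 and 0 genes at an unadjusted edgeR p under 0.05), and no adipocyte marker passed the filter on low counts. The part of these cells in the values of Slc39a10, Mt1 and Mt2 was not tested, and fewer cells of a type and less RNA per cell cannot be told apart in bulk tissue.

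The genes whose profile over the 8 mice was nearest to that of Mt1 were, by root mean square difference of centred log2 CPM, Gm13181 (0.097), Mok (0.13), Bex1 (0.154) and Gm6977 (0.16), where a flat profile would be 0.476 away. Nearest to Mt2 were Gm12868 (0.117), Gm13549 (0.224), Gm4479 (0.275), Gm16559 (0.297) and Dlec1 (0.301), where a flat profile would be 0.758 away. These genes averaged 0.575 to 5.56 CPM, with few counts behind each value. Mt1 and Mt2 differed by 0.413, which placed Mt1 at rank 42 from Mt2 and Mt2 at rank 2859 from Mt1.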

How the data were processed

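RNA from the ventricles of 8 mice (4 LLC1, 4 PBS) was made into TruSeq RNA v2 libraries and sequenced as 150-base paired-end reads. The authors deposited raw counts of reads per gene, with mm10 positions and gene lengths, and per the labels CASAVA, STAR and featureCounts were used, with versions, annotation release and strand setting not given in the sources used here. Genes were kept with filterByExpr and compared with edgeR 4.0.16 (TMM factors, quasi-likelihood F-test, Benjamini-Hochberg over the 16111 genes tested, FDR threshold 0.05) in R 4.3.3. The SE of a log2 fold change was its size divided by the square root of F, and intervals are 1.96 SE. Exact two-sided permutation tests used log2 CPM (prior count 2) over 70 arrangements, with a smallest possible p of 0.0286. CPM are TMM-normalized. Tests were first run on simulated data. Replicate codes give the mice no pairing, and cage or litter is not given, so p-values measure the spread between these mice.

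The 10 genes and all lists were chosen with earlier results of these data known. All 10 are named, with other family members past FDR 0.05 or among the 3 highest per length, and up to 4 genes past FDR 0.05 from each other list. Per1, Fkbp5, Ddit4, Sgk1, Pdk4, Timp1, Junb, Slc30a4, Slc30a7 and Slc39a9 fall outside this rule and were chosen after their values were seen. The same holds for single cell type markers that are named without a call. Likeness was ranked by root mean square difference of centred log2 CPM, and 1 gene of that ranking is not reported here. Selenoh and Selenow are listed in the table under older symbols. Promoter windows came from a RefSeq table (GRCm38.p6), and overlaps and similar transcripts (at least 97% identity over 150 bases, BLAST 2.17.0) from GENCODE M21. Alternatives were DESeq2 1.42.0, upper-quartile and total-count scaling, 2 other low-count filters, limma-voom (limma 3.58.1), the likelihood ratio test, a covariate for the first number of the mouse code, empirical Bayes in its robust form, GC and length offsets, each mouse left out and a prior count of 0.5.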

Additional observations from a re-analysis of the deposited data

Results flagged for a closer look

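Among the 20 sets of 4 values that the 10 genes give (LLC1 and PBS separately), a single sample was flagged as an outlier of its group by Dixon's test. Slc39a14 stood at 101.8 CPM in PBS 1-3, against 89.3 to 91.3 CPM in the other PBS mice, a gap of 0.843 of the group's range, which is past the 95% limit of Dixon's test for 4 values. Chance alone gives such a gap in about 1 of 20 groups.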

How the results depend on the processing

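With all mice, Slc39a10 lost its call, leaving 0 of the 10 genes, when every gene with at least 1 count in any mouse was tested (FDR 0.0511), and with length offsets (0.067) or GC offsets (0.0671). Mt1 gained none (FDR 0.0519 to 0.3, log2 fold change 0.38 to 0.65). With the first number of the mouse code as a covariate, which splits LLC1 into 3 and 1 and PBS into 2 and 2, Mt1 had a log2 fold change of 0.65 (FDR 0.0895) and Slc39a10 of -0.38 (FDR 0.0194). Leaving out 1 mouse gave 0 to 2 calls among the 10 genes and 542 (without PBS 1-3) to 1949 (without PBS 1-1) among all genes. In these fits, 0 to 1 of the other zinc genes, 0 to 1 of the MTF1 list, 1 to 7 of the glucocorticoid list and 2 to 3 of the interleukin-6 list were called. Without PBS 2-1, 1 gene of the glucocorticoid list was called lower and 2 were called higher. Of the other zinc genes, 1 was called with total-count scaling, at least 10 counts in every mouse, the likelihood ratio test, robust empirical Bayes and the covariate. Of the MTF1 list, 1 was called by DESeq2, with at least 1 count in any mouse, by the likelihood ratio test and with GC offsets. In the glucocorticoid list 1 was called with total-count scaling and 5 with at least 1 count in any mouse or the likelihood ratio test. In the interleukin-6 list 6 were called by DESeq2, with at least 1 count in any mouse and by the likelihood ratio test. Total-count scaling called 225 genes higher and 793 lower and moved the median log2 fold change of all genes from -0.01 to -0.06. The cause of these changes was not tested.

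Signs turned for log2 fold changes near 0: Mtf1 with length offsets (0.0025), Slc30a1 with total-count scaling (-0.0065), Slc39a1 with DESeq2 (0.000049), at least 1 count in any mouse (0.0095), limma-voom (0.0023) and the covariate (0.0090), Slc39a8 with GC offsets (0.019), Slc39a14 with length offsets (0.043) and Slc30a5 with GC offsets (0.0054). Without 1 mouse the range was -0.082 to 0.68 for Mt2, -0.71 to 0.11 for Mt3, -0.099 to 0.037 for Slc39a1, -0.28 to 0.18 for Slc39a8 and -0.060 to 0.02 for Slc39a14. Mt3 and Slc30a2 gave no value with at least 10 counts in every mouse. No paired analysis was possible because the groups share only 1 code, which is carried by different mice. At these depths Mt3 and Slc30a2, with 3 to 26 counts a mouse, could show only large differences.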
